A study of Mus musculus with 3 samples.

Results

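The 34 genes described here are enzymes of glycolysis and genes that the hypoxia-inducible factors (HIFs) are known to switch on. They were taken as a fixed list of symbols and matched to the feature names of a count table of 32285 features, in which all 34 were found. The list held 14 glycolytic enzymes, 18 other HIF targets and the 2 HIF alpha subunits themselves. Aldoa was listed as 2 features, which were summed. Counts came from Visium, an assay that lays a tissue section on an array of barcoded spots and counts captured polyadenylated transcripts as unique molecular identifiers (UMIs). There were 3 libraries of mouse distal colon from fresh-frozen tissue, 1 per group. WT intact was uninjured colon of mice wild type for Hgfac, the gene of the protease HGF activator, with no wound and so no day given. WT wound was colon of the same genotype at day 2 after wounding. KO wound was colon of mice labelled as Hgfac knockout, also at day 2. The labels name 3 biological replicates in each library but tie no spot to an animal, and they give no age, sex, strain or way of wounding. Each library formed 3 separate tissue pieces, numbered 1 to 3, and ranges over pieces show the spread within a library. With 1 library per group no test between groups was possible, and brackets give 95% intervals of the counting error only. Each library lay on its own capture area of 1 slide, so that area and group cannot be told apart.

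Glycolysis splits glucose into pyruvate and yields ATP without oxygen. When oxygen is scarce, pyruvate is turned to lactate by lactate dehydrogenase and leaves the cell through monocarboxylate transporters. HIF alpha subunits are made all the time, are marked for destruction by prolyl hydroxylases that need oxygen, and otherwise pair with Arnt and bind promoters that carry a short core motif. Their known targets include nearly every enzyme of glycolysis, and also transporters, vessel growth factors, mitophagy receptors, the hydroxylases that mature collagen, and the oxygen sensors themselves. In the colon the epithelium facing the lumen lives at low oxygen already in health, and a wound adds damaged vessels and infiltrating cells.

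Promoter windows show which members carry the HIF core motif near the start of transcription. RefSeq windows of 300 bases, from 250 before to 50 after the start, on GRCm38.p6, were found for 29 of the 34 genes, some with several starts. The motif searched was ACGTG on either strand, and it overlaps the E-box CACGTG, a motif of other factors. At least 1 window held it for 9 of 14 glycolytic enzymes, for 12 of 14 other HIF targets with a window and for Hif1a, against 21.8% of all 27025 genes in the same table. Members were chosen as known HIF targets, so this share describes the list and is no finding about the wound. Windows are given for 8 members that the results turn on, with ACGTG and its reverse complement in capitals. The first 6 belong to targets outside the enzyme chain, the last 2 to glycolytic enzymes. They lie at chr11:120948817-120949116, plus strand (Slc16a3), chr2:11553880-11554179, minus strand (Pfkfb3), chr11:54100674-54100973, plus strand (P4ha2), chr4:119108495-119108794, plus strand (Slc2a1), chr7:138909457-138909756, minus strand (Bnip3), chr8:45999801-46000100, minus strand (Ankrd37), chr7:46845554-46845853, plus strand (Ldha) and chrX:106186850-106187149, plus strand (Pgk1).
Slc16a3: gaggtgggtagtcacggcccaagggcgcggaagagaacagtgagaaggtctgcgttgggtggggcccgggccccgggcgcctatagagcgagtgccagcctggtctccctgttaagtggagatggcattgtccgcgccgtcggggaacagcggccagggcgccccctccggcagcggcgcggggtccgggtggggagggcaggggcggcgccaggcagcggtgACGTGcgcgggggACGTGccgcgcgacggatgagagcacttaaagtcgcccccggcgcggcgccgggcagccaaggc
Pfkfb3: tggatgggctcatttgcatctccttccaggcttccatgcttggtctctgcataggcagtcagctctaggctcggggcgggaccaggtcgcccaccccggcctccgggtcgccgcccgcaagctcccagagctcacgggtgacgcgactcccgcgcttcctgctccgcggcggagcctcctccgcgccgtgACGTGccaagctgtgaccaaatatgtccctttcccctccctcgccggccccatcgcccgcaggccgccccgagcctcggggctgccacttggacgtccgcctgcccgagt
P4ha2: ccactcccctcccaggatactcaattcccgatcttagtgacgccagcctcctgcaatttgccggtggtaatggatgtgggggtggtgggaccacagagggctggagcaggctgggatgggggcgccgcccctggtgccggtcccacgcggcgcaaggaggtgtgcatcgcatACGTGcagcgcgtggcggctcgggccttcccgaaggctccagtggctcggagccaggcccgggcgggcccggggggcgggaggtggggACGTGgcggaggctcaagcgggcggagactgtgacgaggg
Slc2a1: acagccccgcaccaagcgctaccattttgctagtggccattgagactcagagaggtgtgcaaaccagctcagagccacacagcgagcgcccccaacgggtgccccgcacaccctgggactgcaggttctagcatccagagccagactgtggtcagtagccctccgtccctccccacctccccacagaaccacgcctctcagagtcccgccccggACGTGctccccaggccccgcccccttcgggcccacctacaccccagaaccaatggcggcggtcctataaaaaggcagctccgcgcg
Bnip3: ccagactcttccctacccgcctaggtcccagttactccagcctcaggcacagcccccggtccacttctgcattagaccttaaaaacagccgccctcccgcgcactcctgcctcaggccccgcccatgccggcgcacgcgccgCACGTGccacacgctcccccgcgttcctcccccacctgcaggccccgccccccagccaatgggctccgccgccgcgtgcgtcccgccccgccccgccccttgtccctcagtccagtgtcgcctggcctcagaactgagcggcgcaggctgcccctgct
Ankrd37: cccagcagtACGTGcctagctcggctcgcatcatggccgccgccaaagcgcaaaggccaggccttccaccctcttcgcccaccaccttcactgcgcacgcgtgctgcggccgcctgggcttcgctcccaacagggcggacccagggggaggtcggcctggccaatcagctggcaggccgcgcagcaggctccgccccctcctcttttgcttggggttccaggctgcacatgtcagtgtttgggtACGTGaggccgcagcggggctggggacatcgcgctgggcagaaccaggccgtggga
Ldha: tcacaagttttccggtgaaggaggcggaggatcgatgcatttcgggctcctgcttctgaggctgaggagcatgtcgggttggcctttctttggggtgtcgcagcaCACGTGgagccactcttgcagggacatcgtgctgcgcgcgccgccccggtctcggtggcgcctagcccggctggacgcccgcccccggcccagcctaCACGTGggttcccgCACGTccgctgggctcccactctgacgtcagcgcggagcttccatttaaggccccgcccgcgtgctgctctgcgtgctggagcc
Pgk1: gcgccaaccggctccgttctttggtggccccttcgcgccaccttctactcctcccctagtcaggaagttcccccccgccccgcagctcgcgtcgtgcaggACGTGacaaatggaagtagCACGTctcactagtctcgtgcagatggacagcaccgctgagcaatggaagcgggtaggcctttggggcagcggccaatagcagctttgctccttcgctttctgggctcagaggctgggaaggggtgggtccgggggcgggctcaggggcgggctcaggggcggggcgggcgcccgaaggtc
The motif stood 2 times in the Slc16a3 window and 5 times in the first Ldha window when both strands were counted. CACGTG was among the matches in Ldha and Bnip3 but not in Slc16a3. For Pfkfb3 the first of 2 windows is shown, without CACGTG, and the second one held it. Each CACGTG reads as the motif on both strands and so counts 2 times, which makes the Ldha count larger than its number of places. No match stood in the windows of Adm, Pdk1, Eno1, Gpi1, Tpi1, Pfkl or Pfkp, which says only that these letters are not in these windows.

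The libraries, always given in the order intact, WT wound, KO wound, held 502, 640 and 572 spots with 8180099, 11306771 and 8930574 UMIs. Levels are given as CPM, a gene's UMIs as a share of the library's total scaled to 1e6. Since transcripts were counted at their ends, the CPM of one gene was not set against that of another. Hgfac itself had 627, 1072 and 438 UMIs, and which part of it was deleted is not given, so UMIs at its end check the label only in part. Spots were sorted into surface epithelium, crypt and muscle by lists of marker genes that hold none of the members, and spots in which no list led clearly stayed mixed. Muscle spots made up 42.8%, 29.5% and 17% of the spots in that order, and surface spots 19.7%, 27.8% and 33%. Each spot can hold several cells, and fewer cells of a type and less RNA per cell cannot be told apart. All 11 surface, 13 crypt and 11 muscle markers were detected in each library, and all 10 macrophage and 8 fibroblast markers stood above their intact level in the WT wound. The fibroblast list summed to 1840.0, 3839 and 3841 CPM, and the macrophage list to 709.6, 1411 and 1852. Of the 10 neutrophil markers 8 were detected in WT intact, with Retnlg and Trem1 at 0, and all 10 in both wound libraries.

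In the wounded wild-type colon the HIF targets outside the enzyme chain stood above intact colon while the glycolytic enzymes stood close to it. Ratios of WT wound over WT intact reached at least 1.5 for 9 of the 18 other HIF targets and for 0 of the 14 glycolytic enzymes, where 9.18% of 12402 genes that had 50 or more UMIs between these libraries did so. No member was at or below the inverse of 1.5, against 7.03% of all genes. At 2-fold the counts were 4 of 18 and 0 of 14 higher, beside 3.29% of all genes, and 0 lower, beside 3.08%. The median log2 ratio was 0.55 over the other HIF targets, 0.10 over the glycolytic enzymes and 0.090 over all genes. Ratios above 1 were seen for 17 of 18 other HIF targets, 9 of 14 glycolytic enzymes and both HIF alpha subunits, against 61.0% of all genes, and ratios below 1 for 1, 5 and 0 of them against 39.0%. All 3 WT wound pieces lay above all 3 intact pieces for 12 of the 18 other HIF targets, 1 glycolytic enzyme, Pfkp, and Hif1a, beside 15.6% of all genes. They lay below for 1 member, the hexokinase Hk1, beside 6.89% of all genes.

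**Figure D1:**
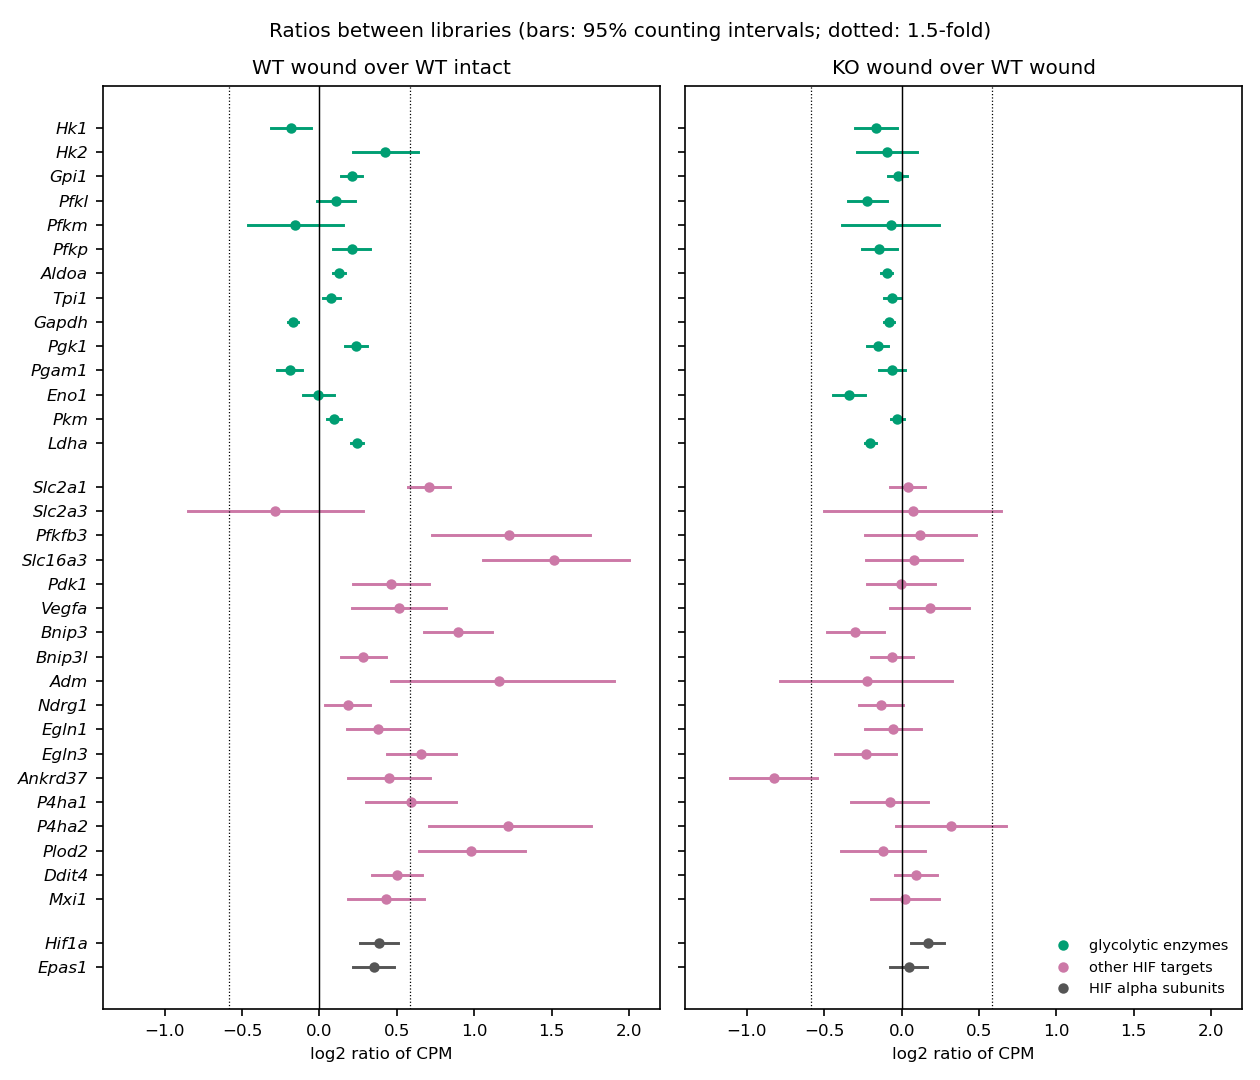
Log2 ratio of CPM between libraries for all 34 genes, WT wound over WT intact on the left and KO wound over WT wound on the right, with points for the ratio, bars for the 95% counting interval and dotted lines at 1.5-fold. On the left the 14 glycolytic enzymes lie between the dotted lines and 9 of the 18 other HIF targets lie at or beyond the right one; on the right only Ankrd37 lies beyond a dotted line.

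Slc2a1, the glucose transporter GLUT1, stood at 79.5 CPM in intact colon, 129.9 in the WT wound and 133 in the KO wound. Its intact pieces held 97.6, 72.1 and 74.5 CPM, and the WT wound pieces, at 131, 139 and 117, and the KO pieces, at 112, 166 and 130.2, were all higher. The ratio was 1.64 [1.49 to 1.8] in WT wound over intact and 1.03 [0.951 to 1.11] in KO over WT wound. Slc2a3, the transporter GLUT3, was sparse, with 52, 59 and 49 UMIs, and its ratio of 0.821 [0.556 to 1.22] in WT wound over intact was the only one of the 18 below 1. Slc16a3, the monocarboxylate transporter MCT4 that carries lactate out of cells, stood at 5.99 CPM in intact colon, 17.2 in the WT wound and 18.1 in the KO wound. Its intact pieces lay at 4.67 to 8.16 CPM, its WT wound pieces at 15.8 to 19.1 and its KO pieces at 10.6 to 25.8, so that intact and wound did not overlap. The ratio of WT wound over intact was 2.86 [2.08 to 4.0], the highest among the members, and KO over WT wound was 1.06 [0.853 to 1.31].

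The 2 enzymes that set the pace and the fate of glycolysis were also higher in the wound. Pfkfb3, which makes the activator of phosphofructokinase, stood at 5.38 CPM in intact colon, 12.6 in the WT wound and 13.7 in the KO wound, from 44, 142 and 122 UMIs. The WT wound ratio was 2.33 [1.65 to 3.35], with intact pieces at 4.06 to 6.54 CPM below WT wound pieces at 9.87 to 16.9. Pdk1, the kinase that shuts pyruvate dehydrogenase, stood at 25.7 CPM in intact colon, 35.4 in the WT wound and 35.3 in the KO wound, a ratio of 1.38 [1.16 to 1.64] with the pieces apart. In KO over WT wound both stayed near 1, at 1.09 [0.847 to 1.4] for Pfkfb3 and 0.997 [0.857 to 1.16] for Pdk1.

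The enzymes of the chain itself differed little between libraries. The 14 together summed to 6907, 7169 and 6662 CPM. Their pieces ranged from 6857 to 6961, 6908 to 7485 and 6478 to 7081, so the 3 libraries overlapped. The 18 other HIF targets summed to 538, 776 and 746 CPM, with pieces at 504 to 591 in intact and 702 to 879 and 682 to 829 in the wound libraries, which did not overlap with intact.

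At the entry of the chain, Hk1, the hexokinase common to most tissues, stood at 108 CPM in intact colon, 94.8 in the WT wound and 84.4 in the KO wound. Its intact pieces lay at 98.7 to 131 CPM and its WT wound pieces at 93.8 to 97.1, a ratio of 0.880 [0.804 to 0.963]. Hk2, the hexokinase that HIF is known to induce, stood at 35 CPM in intact colon, 47 in the WT wound and 44 in the KO wound, the highest WT wound ratio of the enzymes at 1.34 [1.16 to 1.56], but its intact pieces, at 25.9 to 50.4, overlapped with the wound pieces, at 27.8 to 59.1. Among the enzymes down to the split into trioses, ratios were 1.15 [1.1 to 1.21] for the glucose phosphate isomerase Gpi1, 1.08 [0.987 to 1.17], 0.897 [0.726 to 1.11] and 1.15 [1.06 to 1.26] for the liver, muscle and platelet phosphofructokinases Pfkl, Pfkm and Pfkp, and 1.09 [1.06 to 1.12] for the aldolase Aldoa. Pfkp was the one whose wound pieces, at 125 to 139 CPM, lay above the intact ones, at 106 to 118.

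From the trioses on, no enzyme had WT wound pieces apart from the intact ones. Gapdh, glyceraldehyde phosphate dehydrogenase, stood at 1877 CPM in intact colon, 1667 in the WT wound and 1575 in the KO wound, with a WT wound ratio of 0.888 [0.869 to 0.907] and pieces at 1583 to 2002 in intact and 1471 to 1782 in WT wound, which overlapped. Aldoa stood at 1106 CPM in intact colon, 1206 in the WT wound and 1128 in the KO wound with intact pieces at 1049 to 1166 and WT wound pieces at 1107 to 1316, which overlapped as well. For the remaining steps the ratios were 1.06 [1.02 to 1.09] for the triose phosphate isomerase Tpi1, 1.18 [1.12 to 1.24] for the phosphoglycerate kinase Pgk1, 0.874 [0.827 to 0.925] for the mutase Pgam1, 0.995 [0.930 to 1.07] for the enolase Eno1 and 1.07 [1.04 to 1.1] for the pyruvate kinase Pkm. Ldha, the subunit of lactate dehydrogenase that favours lactate, stood at 1020.0 CPM in intact colon, 1205 in the WT wound and 1048 in the KO wound, with a ratio of 1.18 [1.15 to 1.21]. Its intact pieces held 1204, 985 and 921 CPM and its WT wound pieces 1131, 1474 and 957, so that WT wound piece 2 stood above the intact range and pieces 1 and 3 fell inside it. Several of these genes have near-identical copies elsewhere in the genome (Eno1b had 91, 142 and 116 UMIs beside Eno1), and reads that fit both may have been left uncounted, so their levels are uncertain.

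All 6 vessel factors, mitophagy receptors and sensors had ratios above 1. For Bnip3, Vegfa and Adm the WT wound pieces did not overlap with the intact ones, while the KO pieces did. Bnip3, a mitophagy receptor, stood at 29 CPM in intact colon, 53.9 in the WT wound and 43.8 in the KO wound, from intact pieces of 45.3, 15.6 and 31.6 CPM and WT wound pieces of 46.7, 64.2 and 50. The ratio was 1.86 [1.6 to 2.17], and these pieces did not overlap, though intact piece 1 came close to WT wound piece 1. Its relative Bnip3l stood at 75.8 CPM in intact colon, 92.2 in the WT wound and 88.5 in the KO wound, a ratio of 1.22 [1.1 to 1.35], with pieces at 67.4 to 84 in intact and 83.2 to 97.7 in WT wound that overlapped. Vegfa, the main growth factor of blood vessels, stood at 16.7 CPM in intact colon, 23.9 in the WT wound and 27.1 in the KO wound, a ratio of 1.43 [1.16 to 1.76]. Its highest intact piece, at 20.55 CPM, nearly met its lowest WT wound piece, at 20.57. Adm, the vessel-relaxing peptide adrenomedullin, had 23, 71 and 48 UMIs and a ratio of 2.23 [1.38 to 3.75]. KO pieces of Adm, at 2.59 to 7.29 CPM, reached from below the intact pieces, at 2.8 to 2.84, to above the WT wound pieces, at 5.86 to 6.64.

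Among the oxygen sensors, Egln3, the HIF prolyl hydroxylase PHD3 and itself a HIF target, stood at 30.1 CPM in intact colon, 47.5 in the WT wound and 40.4 in the KO wound, a ratio of 1.58 [1.36 to 1.84]. Its WT wound pieces held 64.2, 44.9 and 29.1 CPM against 27.6, 25.6 and 36.9 in intact, and piece 3 lay inside the intact range. Egln1, the PHD2 enzyme that sets HIF stability in most cells, had a ratio of 1.3 [1.13 to 1.49] with overlapping pieces. Hif1a stood at 100.5 CPM in intact colon, 131 in the WT wound and 147 in the KO wound, 1.3 [1.2 to 1.42] in WT wound over intact, with intact pieces at 94 to 113 below wound pieces at 128 to 133. Epas1, which encodes HIF-2 alpha, stood at 92.5 CPM in intact colon, 118 in the WT wound and 122 in the KO wound, with a ratio of 1.27 [1.16 to 1.39] with pieces that overlapped. HIF alpha is controlled mainly at the protein level, which was not measured.

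The 3 collagen hydroxylases were higher in both wounds than in intact colon, in every piece. P4ha1 and P4ha2 encode the catalytic subunits of prolyl 4-hydroxylase, which lets collagen fold into a stable triple helix, and Plod2 the lysyl hydroxylase that prepares collagen cross-links. Summed over the 3 genes the level was 35.5, 63.2 and 62.8 CPM, a ratio of 1.78 [1.55 to 2.05] for the WT wound. Intact pieces lay at 34 to 38.8 CPM, WT wound pieces at 55.5 to 73 and KO pieces at 55.1 to 72. Plod2 stood at 12.1 CPM in intact colon, 23.9 in the WT wound and 21.9 in the KO wound, with intact pieces at 11.9 to 12.6, WT wound pieces at 18.3 to 30 and a ratio of 1.97 [1.56 to 2.51]. P4ha1 stood at 18.2 CPM in intact colon, 27.4 in the WT wound and 26 in the KO wound, with intact pieces at 17.2 to 20.1, WT wound pieces at 24 to 30.3 and a ratio of 1.51 [1.23 to 1.84]. P4ha2, with 42, 135 and 133 UMIs, had a ratio of 2.33 [1.63 to 3.37]. The summed fibroblast markers, genes of the cells that make most collagen, were at 1840.0 CPM in intact and 3839 in WT wound, with pieces at 1508 to 2247 and 3199 to 4888, and their part in the hydroxylase difference was not tested.

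Of the stress and growth genes, Ddit4, an inhibitor of the growth kinase mTORC1, stood at 59.2 CPM in intact colon, 83.7 in the WT wound and 89.2 in the KO wound, a ratio of 1.41 [1.27 to 1.58] with the WT wound pieces above the intact ones. Mxi1, an opponent of Myc, had a ratio of 1.35 [1.14 to 1.6], also with the pieces apart, and Ndrg1, a stress and differentiation gene at 77.7 CPM in intact colon, 88.2 in the WT wound and 80.4 in the KO wound, 1.13 [1.03 to 1.25] with intact pieces at 68.1 to 88.7 and WT wound pieces at 71.6 to 99.7 that overlapped. Ankrd37, an ankyrin-repeat gene known as a HIF target, had a ratio of 1.36 [1.13 to 1.64]. Its WT wound pieces held 55, 22.7 and 6.96 CPM, so that piece 1 lay above and piece 3 below every intact piece, which held 16.3, 30.6 and 16.7.

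**Figure D2:**
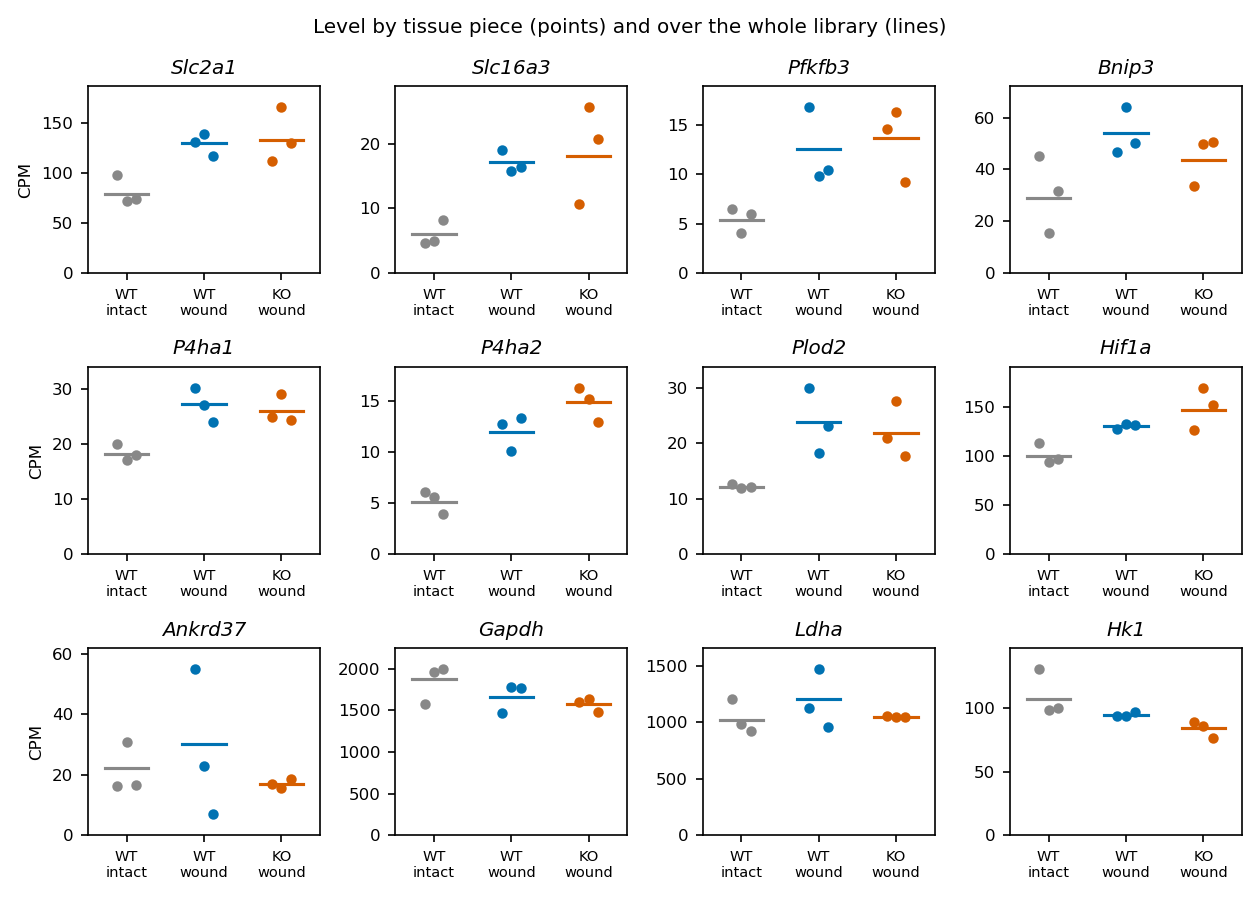
CPM of 12 of the genes by tissue piece (points, 3 per library) and over the whole library (lines), for WT intact, WT wound and KO wound, each panel on its own linear axis from 0. Wound pieces lie above intact pieces for Slc2a1, Slc16a3, Pfkfb3, the 3 collagen hydroxylases and Hif1a, whereas the pieces of Gapdh and Ldha overlap and those of Ankrd37 in WT wound spread from 6.96 to 55.

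Knockout and wild-type wounds held nearly the same levels of both groups. This comparison shares the WT wound library with the one above. In KO over WT wound 0 members reached 1.5, against 3.34% of 12463 genes, and 1 of 34, Ankrd37, was at or below its inverse, against 2.73%. At 2-fold there were 0 in either direction, beside 0.730% and 0.746% of all genes. Ankrd37 stood at 30 CPM in WT wound and 16.9 in KO wound, a ratio of 0.564 [0.462 to 0.685]. The KO pieces, at 15.5 to 18.5 CPM, lay inside the range of the WT wound pieces, and without WT wound piece 1 the log2 ratio turned from -0.83 to 0.10.

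The glycolytic enzymes leaned slightly low in the knockout. All 14 had ratios below 1, from 0.789 to 0.982, while 41.1% of all genes did, and the median log2 ratio was -0.10 beside 0.045 over all genes. These 14 genes share tissue and so are not independent of each other. The lean was not particular to them. Of the genes of pyruvate entry and the TCA cycle, described below, 21 of 23 were below 1, with a median log2 ratio of -0.098. Of those of short-chain fatty acid use 7 of 10 were below 1, with a median of -0.087. Eno1 was lowest, at 179 CPM in WT wound and 141 in KO wound, 0.789 [0.735 to 0.847], and its KO pieces, at 125 to 153, were all lower than in the WT wound, where they lay at 155 to 201. Hk1 was the other member with KO pieces, at 76.6 to 89.4, below WT wound pieces, at 93.8 to 97.1, so 2 of 14 enzymes had this order beside 2.24% of all genes, and 0 of 34 members had the reverse order beside 5.79%. Ldha had 0.870 [0.847 to 0.893], with KO pieces at 1046 to 1052 CPM inside the WT wound range. The other HIF targets had 8 ratios above 1 and 10 below, where 58.9% of all genes were above, and a median log2 ratio of -0.030. P4ha2 was highest at 1.25 [0.974 to 1.6] and Bnip3 lowest after Ankrd37 at 0.813 [0.714 to 0.924]. Hif1a stood at 1.12 [1.04 to 1.21] with overlapping pieces.

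Genes around the pathway were compared through lists that are not members. Of 28 further HIF targets 26 had enough UMIs. In WT wound 11 of these were at least 1.5 times the intact level and 1 was at or below the inverse, beside 9.18% and 7.03% of all genes. The collagen cross-linker Loxl2 stood at 20 CPM in WT intact and 49.5 in WT wound, a ratio of 2.47 [2.07 to 2.96]. The transcription repressor Bhlhe40 had 2.05 [1.85 to 2.28] and Ero1l, an oxidase of disulfide formation, 1.65 [1.39 to 1.95]. The cytokine Mif was the lower one, at 0.598 [0.563 to 0.635]. Car9, a carbonic anhydrase often used as a hypoxia marker, stood at 0.977 [0.838 to 1.14]. In KO over WT wound 3 of the 26 were at least 1.5 and 0 lower, beside 3.34% and 2.73% of all genes. Among the 3 were Hmox1, the haem oxygenase, at 2.74 [2.2 to 3.43], and the lipase inhibitor Angptl4 at 1.76 [1.36 to 2.28]. The KO and WT wound pieces of both overlapped.

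Genes of pyruvate entry and the TCA cycle, which oxidise fuel in mitochondria, leaned low in the WT wound, and few genes of the other lists passed 1.5. Over all genes 9.18% were higher and 7.03% lower in this comparison. Of 10 measured HIF regulators 1 was higher in WT wound, the HIF partner Arnt at 1.58 [1.3 to 1.92], and 0 were lower. Of 15 measured genes of the list of further glucose enzymes 1 was higher, the fructose transporter Slc2a5, with 62 UMIs over both libraries. From the same list 1 was lower, the neuronal enolase Eno2 at 0.484 [0.372 to 0.627]. Enteric nervous markers summed to 632 CPM in intact and 221 in wounded wild-type colon, and their part in the Eno2 difference was not tested. Of 23 genes of pyruvate entry and the TCA cycle 0 were higher and 1 lower, the pyruvate carrier subunit Mpc2 at 0.404 [0.375 to 0.435]. Ratios below 1 were seen for 21 of the 23, beside 39.0% of all genes. Their median log2 ratio was -0.16 beside 0.090 over all genes, and that of the 10 genes of short-chain fatty acid use, by which colonocytes burn butyrate, -0.11, with 0 past 1.5 either way. In KO over WT wound 0 of the HIF regulators, 0 of the TCA genes and 0 of the fatty acid genes passed 1.5. Of 16 genes of the glucose list 1 did, the leukocyte hexokinase Hk3, at 1.77 [1.08 to 2.93] from 30 and 42 UMIs. Over all genes 3.34% were higher and 2.73% lower.

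Since the libraries differed in their share of muscle, the same ratios were taken within layers. Within surface spots all 17 measured other HIF targets stood above 1 in WT wound over intact, where 62.5% of genes did, with a median log2 ratio of 0.50, against 0.13 for the glycolytic enzymes and 0.11 for all genes. Within crypt spots all 16 measured were above 1, beside 64.3% of genes, with medians of 0.75, 0.21 and 0.17 in the same order. In muscle spots 11 of 17 were above 1, beside 57.8% of genes, and the medians were 0.14, -0.20 and 0.091. Bnip3 stood in crypt spots at 11 CPM in intact and 18.7 in WT wound, in surface spots at 37.6 and 82.8, a ratio of 2.2 [1.79 to 2.73], and in muscle spots at 43.1 and 44.7, a ratio of 1.04 [0.757 to 1.42]. Slc2a1 had 1.67 [1.48 to 1.87] in surface and 0.941 [0.689 to 1.29] in muscle. Plod2 had 2.39 [1.47 to 4.03] in crypt and 2.5 [1.72 to 3.69] in muscle. With the 3 layers weighted equally, 5 members kept a ratio of at least 1.5 in place of 9.

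Within layers KO and WT wound stayed close. In KO over WT wound the other HIF targets had median log2 ratios of -0.015 in surface, 0.073 in crypt and -0.079 in muscle spots, with 7 of 18, 11 of 17 and 7 of 17 above 1 where 59.7%, 55.1% and 52.3% of genes were. The glycolytic enzymes had -0.16, -0.071 and -0.028, with 0, 4 and 5 of 14 above 1.

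Glycolytic genes were layered in every library, with surface epithelium above crypt. The 14 enzymes summed to 8249, 9081 and 8147 CPM in surface spots of the 3 libraries, and to 4771, 4778 and 4535 in crypt spots. In all 3 libraries 8 of the 14 were at least 1.5 times higher in surface, where 8.05% of 10776 genes were, and 1 was lower, Pfkm, where 30.2% of genes were. The median log2 ratio was 0.91, 0.89 and 0.82, against -0.42, -0.55 and -0.51 over all genes. Ldha stood at 1514, 1786 and 1451 CPM in surface and 593, 675 and 609 in crypt, ratios of 2.55, 2.65 and 2.38. Hk2, at ratios of 3.46, 2.68 and 2.15, and Pfkp, at 2.57, 2.62 and 2.4, were the enzymes with the highest means among those with at least 200 UMIs in each library. Gpi1 was nearly even, at 1.13, 1.09 and 1.07.

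The other HIF targets leaned to surface less than the enzymes, with members on both sides. Their median log2 ratio of surface over crypt was 0.82, 0.29 and 0.18 in the 3 libraries, against -0.42, -0.55 and -0.51 over all genes. In all 3 libraries 5 of 16 measured were higher in surface, Slc2a1, Bnip3, Egln3, Ankrd37 and Mxi1, beside 8.05% of genes. The reverse held for 2, Ndrg1 and Plod2, which were higher in crypt, beside 30.2% of genes. Slc2a1 held 129, 214 and 209.5 CPM in surface and 36.5, 56.8 and 62.8 in crypt spots, ratios of 3.52, 3.77 and 3.33. Bnip3 ratios were 3.43, 4.43 and 4.37 and Egln3 ratios 4.19, 4.34 and 4.09, and for these 3 genes every piece of every library had surface above crypt. Ndrg1 had the reverse order in every piece, with ratios of 0.467, 0.413 and 0.573. Ddit4 was even, at 1.02, 1.1 and 1.16. Hif1a was higher in surface, at 2.57, 2.29 and 1.54, and Epas1 at 1.69, 1.27 and 1.36. Slc16a3 lay on the surface side in WT intact and WT wound and near even in KO wound, a difference that was not tested. Its surface level was 7.45, 22.8 and 14.3 CPM and its crypt level 1.83, 6.48 and 20.6, so its ratio was 4.08 [1.39 to 16.2] in WT intact, 3.52 [2.1 to 6.25] in WT wound and 0.692 [0.464 to 1.04] in KO wound. Crypt spots of the KO wound also held 1102 CPM of wound-bed markers against 218 in WT wound, and 18 of the KO crypt spots belonged to the wound core described further on.

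Muscle spots held a different selection. The glycolytic enzymes together were near even with epithelium (surface plus crypt), at median log2 ratios of 0.11, -0.22 and 0.0058. Over all genes the medians were -0.00038, 0.087 and 0.086. Of the 14, 1 was at least 1.5 times higher in muscle in all 3 libraries, the muscle isoform Pfkm at 4.82, 4.15 and 3.56, and 1 was lower, Hk2 at 0.251, 0.459 and 0.321, beside 17.7% and 13.9% of 11719 genes. Of the 18 other HIF targets 5 were higher, Slc2a3, Pfkfb3, P4ha1, P4ha2 and Plod2, and 3 lower, Slc2a1, Pdk1 and Ddit4, with Epas1 also lower. The median log2 ratio over these 18 changed side between libraries, at 0.55, -0.31 and -0.14, a difference that was not tested. The 2 glucose transporters had opposite layers. Slc2a1 ratios were 0.508, 0.270 and 0.237 and Slc2a3 ratios 14, 6.51 and 3.65, the latter from 46, 52 and 41 UMIs. Plod2 held 21.8, 54.5 and 51.4 CPM in muscle against 5.51, 6.8 and 7.94 in surface spots. Among members with at least 200 UMIs in each library the lowest mean ratios belonged to Slc2a1, Hk2 and Ddit4, the last at 0.646, 0.484 and 0.444. The highest belonged to Egln1, at 1.42, 1.11 and 1.14, Pfkp, at 1.45, 1.01 and 1.09, and Aldoa, at 1.47, 1.05 and 0.914, which lay on both sides of 1.

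**Figure D3:**
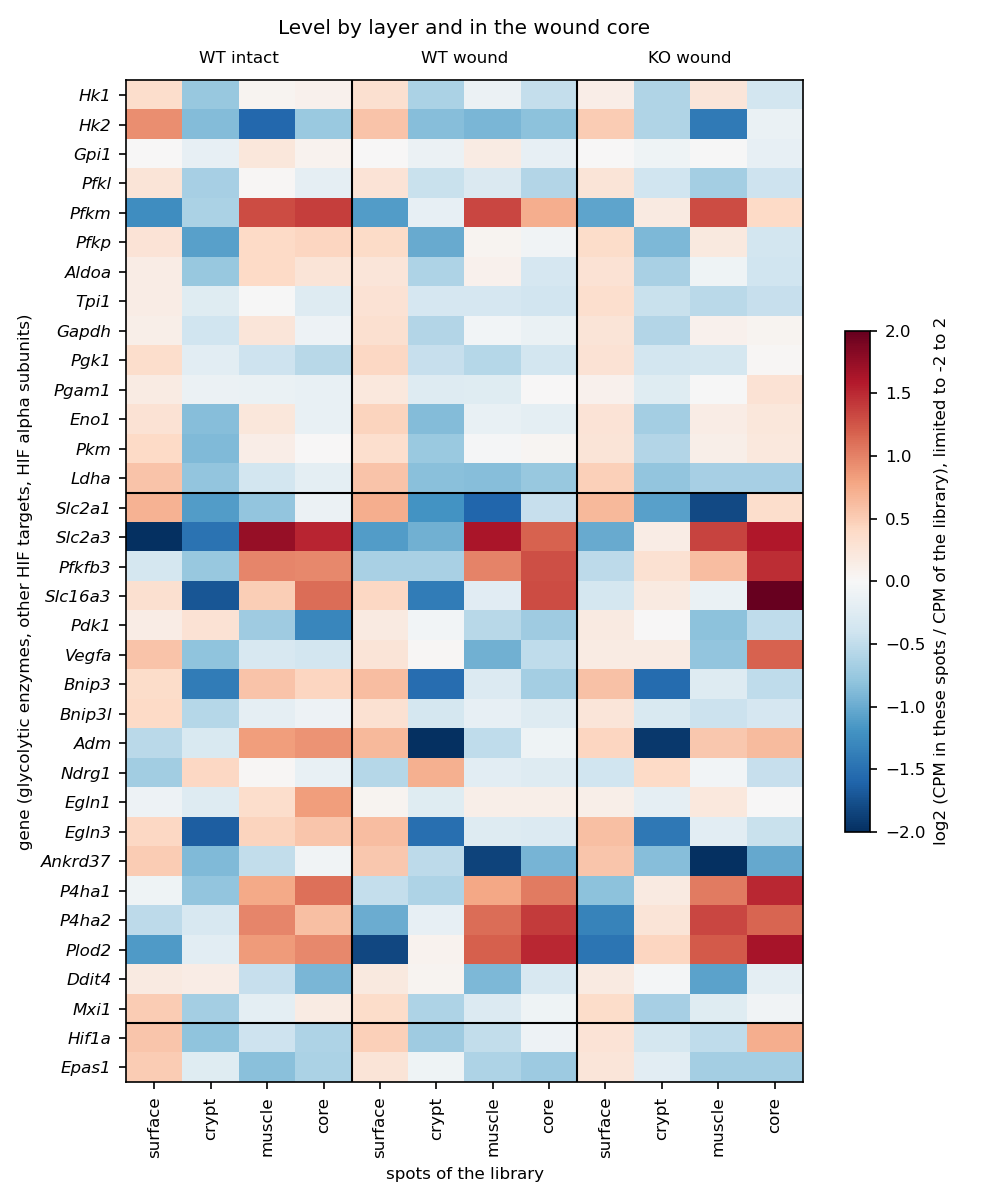
Log2 ratio of CPM in surface, crypt, muscle and wound-core spots over CPM of the whole library, for the 34 genes (rows) and the 3 libraries (column blocks), limited to -2 to 2. The surface columns are red and the crypt columns blue for most glycolytic enzymes and for Slc2a1, Bnip3 and Egln3, while Slc2a3, Pfkfb3, P4ha1, P4ha2 and Plod2 are red in muscle and core.

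To follow the genes by distance from the wound, the core was defined as the 10% of spots of a library with the highest summed level of wound-bed markers, and distant spots as those at least 6 array steps from any core spot of their piece. The cores held 64 spots in WT wound and 57 in KO wound, and 170 and 156 spots were distant. Muscle made up 35 of 64 core spots in WT wound, while the 57 core spots of KO wound held 18 crypt, 18 mixed, 17 muscle and 4 surface spots. Distant spots were led by surface epithelium, 82 of 170 and 103 of 156, so distance and layer are mixed in this contrast. The same rule in WT intact, which has no wound, picked 50 spots, 43 of them muscle, and left 16 distant spots.

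Set against all distant spots, transcripts of the glycolytic enzymes were lower in the core of both wounds, and this direction turned with the spots compared. The 14 enzymes summed to 5931 CPM in the WT core and 8264 in distant WT spots, and to 6001 and 8130.2 in the KO wound. Their median log2 ratio was -0.46 in WT wound and -0.23 in KO wound, against 0.28 and 0.38 over all genes, and 0.0017 in WT intact. Against distant crypt spots alone, a comparison chosen after the data were seen, the medians were 0.10 and 0.45, and with the core set by neutrophil markers 0.60 and 0.36. That neutrophil core was largely another set of spots. It shared 5 of 64 spots with the wound-bed core in WT wound and 26 of 57 in KO wound, and 57 and 33 of its spots were surface. In WT intact, with no wound, the same rule picked 50 spots, 44 of them surface. Ldha stood at 711 CPM in the core and 1516 in distant spots of WT wound, 0.469 [0.433 to 0.507], and at 662 and 1510.1 in KO wound, 0.439 [0.401 to 0.479], lower in all 6 pieces. In WT wound Hk2 was also low, at 0.485 [0.312 to 0.727], while Pfkp, at 0.931 [0.758 to 1.14], and Pgam1, at 0.912 [0.790 to 1.05], were the highest enzymes with at least 200 UMIs. In KO wound Pgam1, at 1.14 [0.984 to 1.32], and Eno1, at 0.990 [0.815 to 1.2], held that place. In both wound libraries 2 of 14 enzymes, Ldha and Pfkl, were at or below the inverse of 1.5, beside 12.1% of 10507 genes, and 1, Pfkm, at least 1.5, beside 27.8%. In the libraries singly 1 and 5 enzymes were higher and lower in WT wound, beside 35.5% and 16.7% of genes, 1 and 3 in KO wound, beside 41.8% and 18.4%, and 2 and 2 in WT intact, beside 25.7% and 28.2%.

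Against all distant spots the other HIF targets went both ways in the core. In both wound libraries 6 of 18 were at least 1.5 times higher in the core, Slc2a3, Pfkfb3, Slc16a3, P4ha1, P4ha2 and Plod2. This share was close to the 27.8% of all 10507 genes. Lower were 3, Pdk1, Bnip3 and Ankrd37, beside 12.1% of all genes. Slc16a3 stood at 42.4 CPM in the WT core and 15.6 in distant spots, 2.72 [1.79 to 4.12], and at 77.1 and 10.4 in KO wound, 7.41 [4.78 to 11.7]. By piece the core level was 66.1, 15 and 65.2 CPM in the WT pieces and 14.7, 102 and 90.2 in the KO pieces, so 1 piece of each library stood low. Pfkfb3 had 4.66 [2.65 to 8.3] and 6.14 [3.38 to 11.5], higher in all 6 pieces. Plod2 had 6.23 [4.16 to 9.44] and 10.6 [6.27 to 18.6], P4ha1 3.55 [2.42 to 5.21] and 6.11 [4.0 to 9.45], and P4ha2 3.73 [2.2 to 6.32] and 4.86 [2.66 to 9.01], each higher in all 6 pieces. Bnip3 was lower, at 0.467 [0.317 to 0.669] and 0.467 [0.298 to 0.705], but against distant crypt spots alone its log2 ratio was 0.49 and 2.21. The median log2 ratio over the 18 was -0.087 in WT wound and -0.0047 in KO wound, below the 0.28 and 0.38 over all genes. In WT intact, with no wound, the median was 0.25 over the 10 measured, against -0.085 over all genes. Of these 4 were higher in the core and 1 lower, beside 25.7% and 28.2% of genes. There P4ha1 stood at 39.1 CPM in the core and 9.92 in distant spots, from 15 and 7 UMIs. Plod2 stood at 23.5 and 5.67, from 9 and 4 UMIs, and Slc16a3 at 13 and 4.25, from 5 and 3. Egln1 had 1.1 [0.807 to 1.49] in WT wound and 1.01 [0.7 to 1.42] in KO wound. Hif1a lay on opposite sides of 1, at 0.795 [0.649 to 0.968] in WT wound and 1.51 [1.27 to 1.78] in KO wound, a difference that was not tested. It did so against distant surface spots too, at 0.637 [0.517 to 0.779] and 1.34 [1.13 to 1.58]. Against distant crypt spots Hif1a was above 1 in both wounds, at 1.49 [1.1 to 2.05] and 2.98 [2.02 to 4.52]. Epas1 had 0.521 [0.401 to 0.668] and 0.569 [0.430 to 0.742] against all distant spots. Fibroblast markers summed to 10402 CPM in the WT core and 1824 in distant spots, and to 7837 and 1691 in KO wound. Macrophage markers stood at 3498 and 908 in WT wound and at 5236 and 873 in KO wound, and all 8 fibroblast and 10 macrophage markers were higher in both cores. Their part in these differences was not tested.

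Within muscle alone the contrasts of Ldha, Pfkfb3 and the collagen hydroxylases were smaller. When muscle spots of the core were set against the other muscle spots of the same library, 35 against 154 in WT wound and 17 against 80 in KO wound, the median log2 ratio of the glycolytic enzymes was -0.10 and 0.15. Ldha stood at 0.948 [0.836 to 1.07] and 1.11 [0.931 to 1.31], and Pfkfb3 at 1.56 [0.827 to 2.85] and 1.48 [0.520 to 3.76]. The collagen hydroxylases came to 1.21 [0.780 to 1.84] and 1.71 [0.936 to 3.02] for Plod2, 1.02 [0.620 to 1.63] and 1.39 [0.745 to 2.49] for P4ha1 and 1.47 [0.784 to 2.67] and 1.09 [0.480 to 2.27] for P4ha2, with every interval reaching below 1. Slc16a3 stayed higher, at 2.5 [1.13 to 5.47] from 14 and 16 UMIs and 2.1 [0.701 to 5.79] from 7 and 12, the second interval including 1. Hif1a was also higher, at 1.42 [1.03 to 1.93] and 1.96 [1.32 to 2.9], and so was Pkm, at 1.23 [1.1 to 1.36] and 1.47 [1.29 to 1.69]. This comparison was chosen after the data were seen.

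The cores of the wound libraries differed for a few members, without a test and with pieces that overlapped. Vegfa stood at 16.8 CPM in the WT core, from 17 UMIs, and at 61.7 in the KO core, from 52. Of these 52 UMIs 35 came from KO piece 3, whose core level was 132, against 14.7 and 37.6 in the other KO pieces and 4.66 to 36.1 in WT wound. Hif1a stood at 122 in the WT core and 243 in the KO core, and Slc2a1 at 94.8 and 171. For both, KO pieces 2 and 3 lay above every WT piece. KO piece 1 lay within the WT range for Hif1a, at 107 CPM, and below every WT piece for Slc2a1, at 39.1. The wound-bed list that defines the core summed to 1819 CPM in the WT core and 5313 in the KO core, and the neutrophil list to 218 and 1814, and their part in these differences was not tested.

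Between core and distance the members followed different courses. Rings were drawn at 0, 1 to 2, 3 to 5, 6 to 9 and 10 or more array steps from the core. In WT wound Ldha ran 711, 714, 1359.8, 1519 and 1503 CPM over these rings, and in KO wound 662, 662, 939.7, 1472 and 1622. The collagen hydroxylases ran the other way, at 156, 91.2, 47.7, 34.9 and 36.7 CPM in the WT wound and 176, 92.5, 50.7, 27.9 and 17.9 in KO wound. WT intact, with the same rule and no wound, gave 70.4, 46.3 and 27.2 over its 3 inner rings. Slc2a1 was lowest in the ring next to the core, at 74.8 CPM in WT wound and 76.1 in KO wound, beside 94.8 and 171 in the core itself. Slc16a3 dropped within 2 steps, from 42.4 to 11.7 CPM in WT wound and from 77.1 to 17.4 in KO wound, and stayed between 11.7 and 16.4 in the outer rings of WT wound. Surface spots made up 3.12% of the WT core and 60% of its outermost ring, and 7.02% and 90.6% in KO wound.

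**Figure D4:**
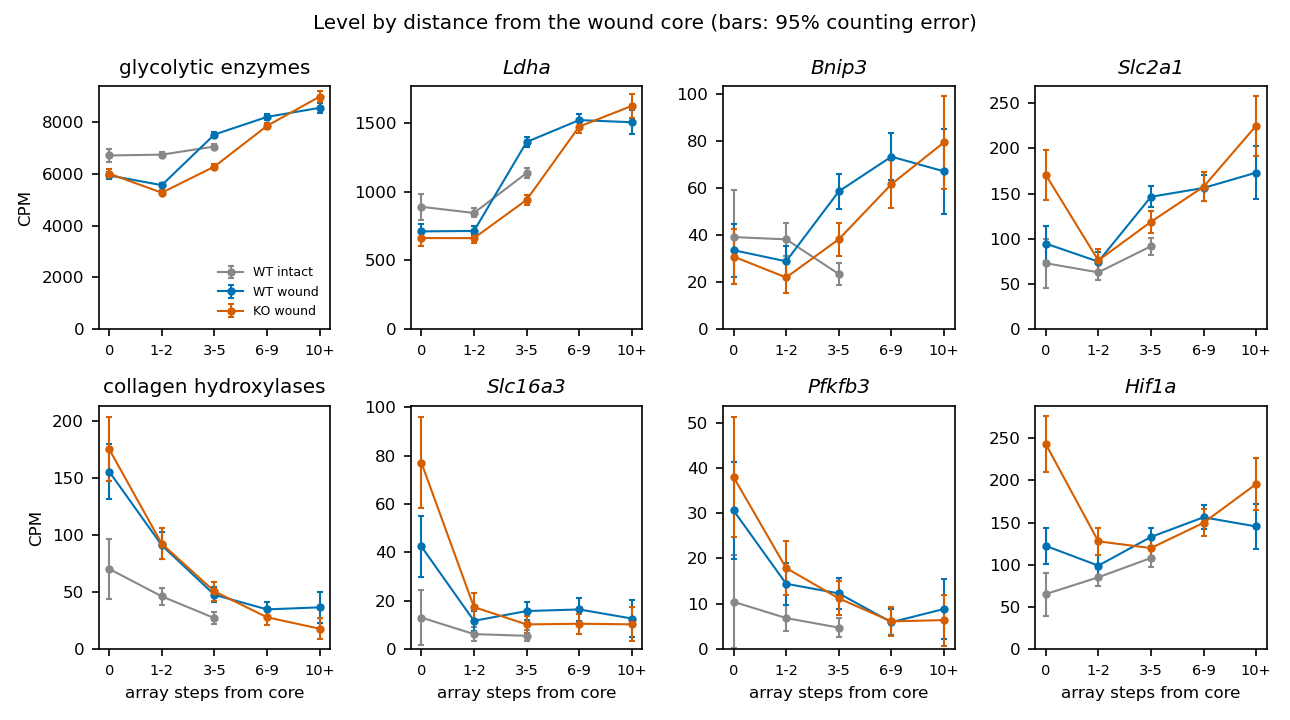
CPM by distance from the wound core in array steps, for the 14 glycolytic enzymes summed, the 3 collagen hydroxylases summed and 6 single genes, in WT intact (grey, control with no wound), WT wound (blue) and KO wound (orange), with bars for the 95% counting error; rings with fewer than 20 spots are not drawn. In both wounds glycolytic enzymes, Ldha and Bnip3 are higher at 6 steps and beyond than in the core, while collagen hydroxylases, Slc16a3 and Pfkfb3 are highest in it.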

How the data were processed

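The authors deposited raw UMI counts per feature and spot, made with Space Ranger 1.2.1 per the file headers and on build mm10 per the submitters' processing notes. For the annotation release and the read filters nothing was given in the sources used. The members, the gene lists and the tests were chosen with earlier results of these data known.

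Counts were summed by gene symbol over spots and scaled to the total of the library, piece or layer as CPM (Python 3.11.15, numpy, scipy 1.17.1). A count of 3 UMIs corresponds to 0.367, 0.265 and 0.336 CPM in the libraries, in the order of the report. Ratios have exact conditional binomial intervals at 95%, and the calculation was tested on simulated data. Pieces were connected groups of at least 20 spots. A spot was given to the layer whose marker list, relative to its mean over all spots, exceeded the next by 1.5 times. Between libraries genes needed 50 UMIs, within a library 20 UMIs over both sides, and medians within a library used a pseudocount of 0.5 UMIs. A ratio of 1.5 or its inverse, as computed on totals, was the threshold of every count. Full values were given for members past it with at least 200 UMIs over both sides, for the 3 with the highest CPM and, per pathway list, for up to 3 genes in each direction, ranked by the interval bound nearest 1, and for contrasts within libraries for the 3 highest and 3 lowest members with 200 UMIs. Car9, Hk3 and Slc2a5, and members under 200 UMIs, were named after their values were seen. The alternatives were other scalings, minimum counts, layers, cores and left-out pieces. Barcodes shared by libraries (149 to 279 spots) are positions of the same array design. Promoter windows came from RefSeq (GRCm38.p6). The values of 1 gene of the further lists are not reported here.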

Additional observations from a re-analysis of the deposited data

Results flagged for a closer look

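Of the contrasts within libraries, 2 gave a member with all 3 pieces of one library above 1 and all 3 pieces of another below 1. The difference between the libraries was not tested in either case. P4ha1 stood at 1.63 in surface over crypt of WT intact, with pieces from 1.11 to 2.58, and at 0.499 in KO wound, with pieces from 0.420 to 0.827. These rest on 76 and 128 UMIs, and the WT wound ratio was 1.1 [0.773 to 1.6]. The crypt level of P4ha1 was 10.5, 17.9 and 29.5 CPM in the order intact, WT wound, KO wound, and the surface level 17.2, 19.8 and 14.7. Aldoa stood at 1.47 in muscle over epithelium of WT intact, with pieces from 1.08 to 1.61, and at 0.914 in KO wound, with pieces from 0.803 to 0.985. Its muscle level was 1455, 1274 and 1065 CPM in the 3 libraries.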

How the results depend on the processing

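With the layers weighted equally 5 members in place of 9 were at least 1.5 times higher in WT wound over WT intact, and at a fold of 2 there were 4. In KO over WT wound the 1 member lower became 0 at a fold of 2 and ranged from 0 (without WT wound piece 1) to 2 (without KO wound piece 1 or 2) when single pieces were left out. The WT wound median of the glycolytic enzymes moved from 0.10 to 0.018 with median-ratio scaling and -0.021 with equal weight per spot, and their surface over crypt median from 0.87 to 0.76 with no layer margin and 0.93 with a margin of 2. The core medians of the glycolytic enzymes, -0.46 in WT wound and -0.23 in KO wound, became 0.60 and 0.36 with a core set by neutrophil markers, 0.10 and 0.45 against distant crypt spots, and -0.10 and 0.15 within muscle. Those of the other HIF targets, -0.087 and -0.0047, became 0.52 and 1.12 against distant crypt spots, 1.28 in WT wound with the neutrophil core, and 0.49 in KO wound against distant muscle spots. Log2 ratios between libraries or of core over distant that changed sign included, in a list that is not complete, Ankrd37 in KO over WT wound without WT wound piece 1 (0.10, with -1.2 the lowest value on leaving out a piece) and, for the core, with the neutrophil core in WT wound Hk2 1.73, Pfkl 0.30, Pfkm -3.48, Pfkfb3 -0.92, Ldha 2.0, Pdk1 1.21, Bnip3 1.49, Ankrd37 2.56, P4ha1 -0.82, P4ha2 -2.96, Plod2 -3.45, Epas1 1.4, and in KO wound Pfkm -1.98, Pfkfb3 -0.49, Ldha 1.08, Bnip3 1.78, Ankrd37 0.056, P4ha2 -1.84, Plod2 -0.45, Epas1 0.58. Of the neutrophil core spots 57 of 64 in WT wound and 33 of 57 in KO wound were surface spots. Against distant muscle, 12 and 6 spots, the changes of sign included Hk2 0.25, Pfkm -1.52, Pfkfb3 -0.035, Ldha 0.068, P4ha2 -0.35, Epas1 0.27 in WT wound and Pfkm -1.12, Ankrd37 0.31, P4ha2 -0.090, Epas1 1.82 in KO wound. Against distant crypt they included Hk2 0.41, Bnip3 0.49 in WT wound and Bnip3 2.21 in KO wound, within muscle Ankrd37 0.33 in WT wound and Pfkm -0.40, Ldha 0.15, Bnip3 0.39 in KO wound, and with a core of 5% of spots Pfkm -0.016 in WT wound. Further members rose from below 1 to above it. In WT wound Hif1a, Pfkp and Pgam1 had ratios of 1.49, 2.03 and 1.16 against distant crypt. Within muscle of that library these genes had 1.42, 1.17 and 1.14. In KO wound Eno1 had 1.59 against distant crypt. The comparisons against distant crypt and within muscle, and cores without Tnc and Thbs1 or taken per piece, were chosen after seeing the data. Of the medians and counts recomputed, 180 values stayed, and the remaining 20 moved as given. A value stayed when it moved by less than the spread of pieces or libraries, and a count when it was within 1.5 times. No paired analysis was possible because the labels give 1 library per group. Sparse targets limit what depth can show in the core: Slc16a3 rested on 43 and Vegfa on 17 UMIs in the WT core. The cause of these changes was not tested.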
